A study of Mus musculus with 2 samples.

Results

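The genes described here are 10 of the 32291 genes measured by single-cell RNA sequencing of colitis-associated colon tumors (CACs) of mice, chosen by name because they take up, store or export iron or make, bind or break down heme. Tfrc encodes transferrin receptor 1, which takes iron-loaded transferrin into cells. Slc11a2 and Slc11a1 encode the iron transporters DMT1 and NRAMP1, Fth1 and Ftl1 the heavy and light chains of ferritin, and Slc40a1 the iron exporter ferroportin. Hmox1 encodes heme oxygenase 1, Cd163 the scavenger receptor for hemoglobin bound to haptoglobin, Hp haptoglobin itself and Alas2 the erythroid enzyme that starts heme synthesis. All 10 were rows of the table and were followed over the 11 annotated cell types in each of 2 libraries.

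Cells hold iron in balance through iron regulatory proteins that bind a stem-loop, the iron-responsive element, in mRNAs of this pathway when iron is scarce. Bound in a 5′ UTR the element blocks translation, and bound in the 3′ UTR of Tfrc it protects the mRNA from decay. Macrophages recycle the iron of aged red cells by breaking down heme and exporting the iron through ferroportin, while inflammation makes them keep it. Neutrophils store haptoglobin in granules, and colon epithelium takes up iron for its own division.

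CACs were induced with azoxymethane (10 mg/kg, 5 days before the first and the second cycle) and cycles of dextran sodium sulfate in the drinking water (2.5% in the first and second, 2% in the third) from an age of 6 to 10 weeks, and mice were killed on day 110. The genotypes were Mir34a_F/F, in which Mir34a is flanked by loxP sites but intact, and Mir34a_Mye_KO, in which LysM-Cre, expressed from the lysozyme gene Lyz2 in macrophages, monocytes and neutrophils, deletes it. For each genotype, tumors of 3 mice were pooled into 1 library. Red blood cells were lysed and dead cells removed before loading, which bears on the number of erythroid cells. The libraries are named here by their labels, as the F/F-labelled and the Mye_KO-labelled library.

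The F/F-labelled library held 20312 cells and 147109016 unique molecular identifiers (UMIs, 1 per captured mRNA molecule), with a median of 4787 per cell. The Mye_KO-labelled library held 18571 cells, 193133086 UMIs and a median of 7716, and was deeper in 11 of 11 cell types. The depth ratio was largest in B cells, at medians of 3664 UMIs in the F/F-labelled and 20852 in the Mye_KO-labelled library. The part of depth or of cell make-up in the B-cell differences below was not tested. The only feature of the deleted gene with UMIs, mir34apri, had 133 UMIs in macrophages of the F/F-labelled and 462 of the Mye_KO-labelled library, a log2 ratio of 1.03 (0.74 to 1.31). In neutrophils it had 9 and 12 UMIs, a log2 ratio of -0.37 (-1.74 to 1.06), which leaves the direction there unresolved. The macrophage value goes against the label if the feature lies in the deleted stretch, and where it lies is not given in the sources used here. Of 56 defining markers of the 11 cell types, 54 had their highest level in their own type, and both exceptions were markers of basophils. Of all barcodes, 96 occurred in both libraries. Levels are UMIs of a gene per 10000 UMIs, summed over the cells of a type in a library, and intervals are 95% intervals for counting error only. With 1 library per genotype nothing was tested, and no interval covers the differences between mice.

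The members were searched for an iron-responsive element in the reference, a route by which iron acts on mRNAs of this pathway. The search, on the mRNA strand only, was for an unpaired C, 5 bases, the loop CAGTGN and 5 bases that pair with those before the loop (G with T allowed). In the annotated UTRs of GENCODE M21 (GRCm38), 5 of the 10 members held a match, against 0.710% of all 21840 protein-coding genes. The members were chosen by name from the pathway that carries this element, so their excess was fixed by that choice and is no finding. Fth1, Ftl1, Slc40a1 and Alas2 held it in the 5′ UTR, where 0.128% of genes did, and Tfrc held it in the 3′ UTR at 4 places. Each site is given 5′ to 3′ with its 6-base loop in capitals.
Fth1, 5′ UTR, chr19:9982733-9982759 (+): tcctgcttcaaCAGTGCttgaacggaa
Ftl1, 5′ UTR, chr7:45459780-45459806 (-): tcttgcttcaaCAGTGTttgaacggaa
Slc40a1, 5′ UTR, chr1:45925466-45925492 (-): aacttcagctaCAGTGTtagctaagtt
Alas2, 5′ UTR, chrX:150547459-150547485 (+): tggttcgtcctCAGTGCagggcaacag
Tfrc, 3′ UTR, chr16:32631220-32631246 (+): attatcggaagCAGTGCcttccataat
Tfrc, 3′ UTR, chr16:32631599-32631625 (+): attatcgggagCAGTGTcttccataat
Tfrc, 3′ UTR, chr16:32631664-32631690 (+): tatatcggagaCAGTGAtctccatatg
Tfrc, 3′ UTR, chr16:32631711-32631737 (+): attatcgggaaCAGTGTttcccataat
Slc11a2, Slc11a1, Hmox1, Cd163 and Hp had no match, which says only that these letters are not in their annotated UTRs. A stem with an extra or missing base is missed by this pattern, so these genes are not shown to lack the element.

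The microRNA deleted in the Mye_KO mice is shown because its seed (bases 2 to 8, in capitals) defines the sites it could bind. The mature sequence is from RefSeq (GRCm38.p6, chr4:150068473-150068494, + strand).
mmu-miR-34a-5p: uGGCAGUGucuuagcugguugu
A match to the whole seed was present in the 3′ UTR of 2 members, Tfrc and Slc11a2, and in 14.9% of the 20967 genes with an annotated 3′ UTR. The matches are shown with the paired bases in capitals.
Tfrc, chr16:32631070-32631091 (+): acttgaaaagaacaCACTGCCa
Slc11a2, chr15:100394475-100394496 (-): gaggcagacacctcCACTGCCc
The levels of these 2 genes in both libraries are given below with those of the others.

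By the mean of the libraries' levels, macrophages were highest for Hmox1, Ftl1, Slc40a1 and Slc11a2 and neutrophils for Fth1, Slc11a1 and Hp. Erythroid cells were highest for Alas2 and dendritic cells for the nearly absent Cd163, while for Tfrc epithelial cells led in the F/F-labelled and erythroid cells in the Mye_KO-labelled library. Macrophages gave 13.2% of all UMIs of the F/F-labelled and 17.2% of the Mye_KO-labelled library. Against this they held 64.8% and 69.9% of the Hmox1 UMIs, 61.3% and 60.7% of the Slc11a1 UMIs, 48.7% and 51.1% of the Fth1 UMIs and 45.5% and 48.5% of the Ftl1 UMIs. Epithelial cells, with 64.2% and 45.9% of all UMIs, held most Tfrc UMIs (74.6% and 54.8%) and a large part of those of Slc11a2 (69.2% and 49.0%) and Slc40a1 (65.4% and 42.6%).

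**Figure D1:**
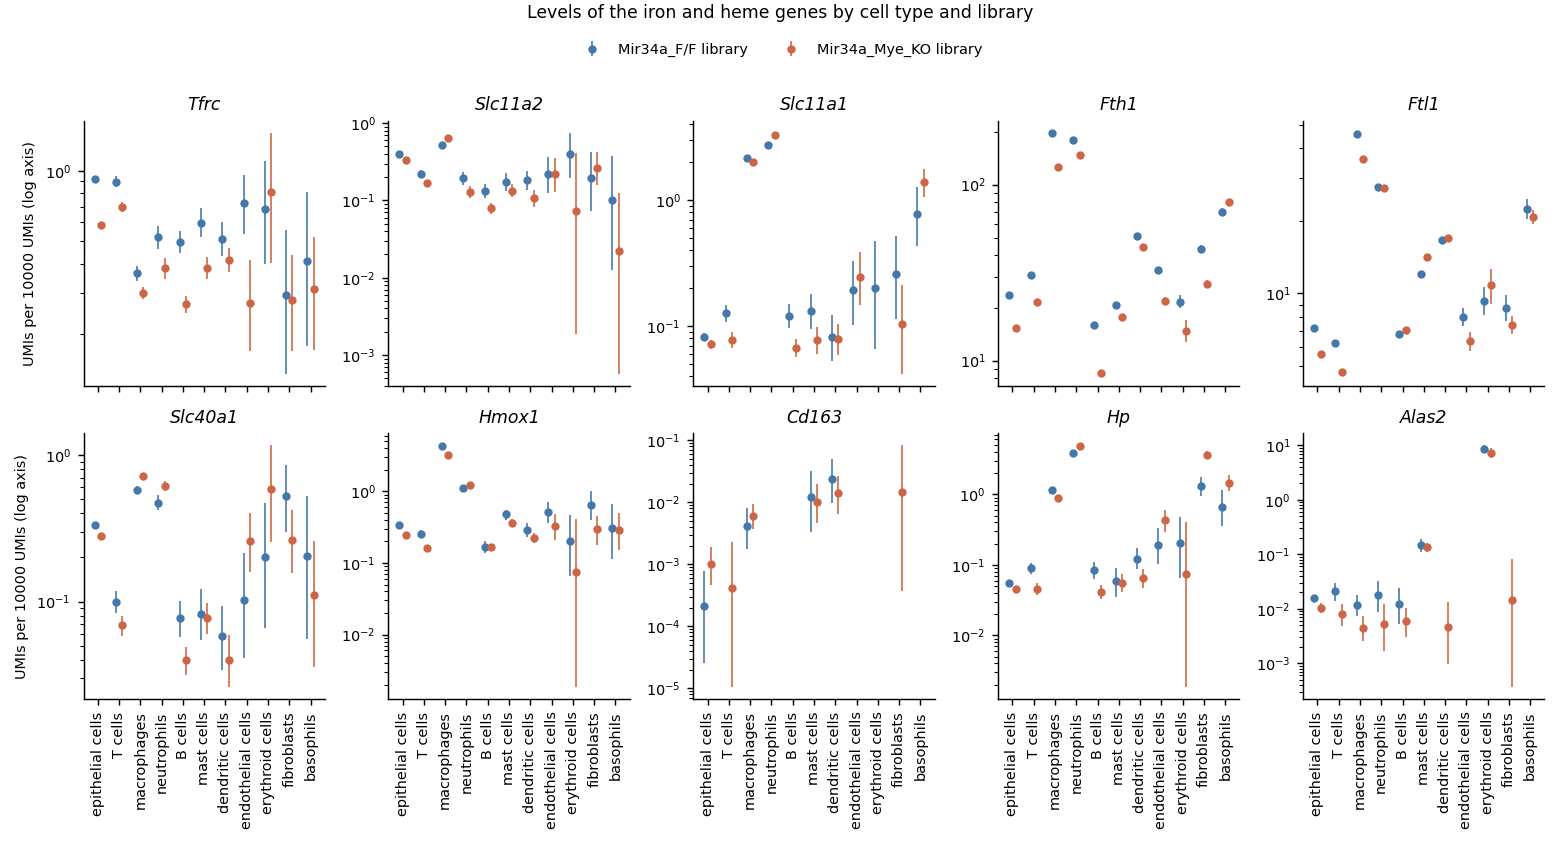
Level of each of the 10 genes (UMIs per 10000 UMIs, log axis) in 11 cell types, for the F/F-labelled (blue) and the Mye_KO-labelled library (orange). Bars are exact Poisson 95% intervals and levels of 0 are not drawn. Hmox1 was highest in macrophages in both libraries, Hp and Slc11a1 in neutrophils, and Alas2 in erythroid cells.

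**Figure D2:**
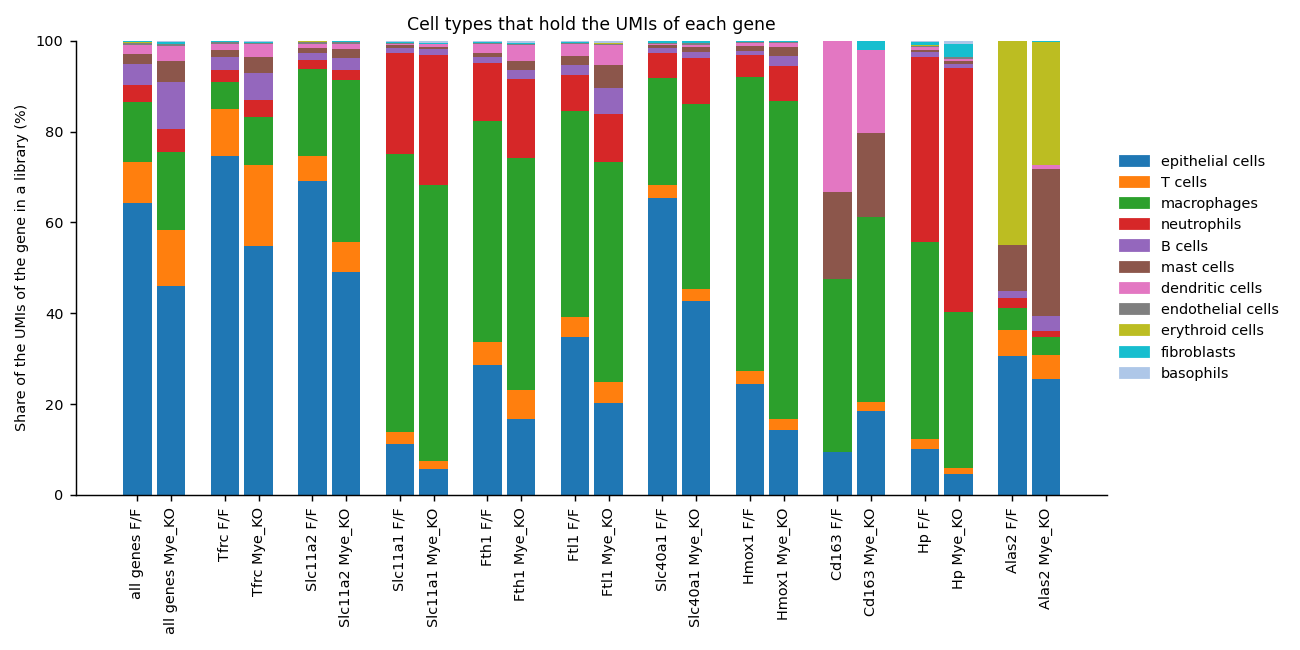
Share of the UMIs of each gene (percent) that came from each cell type, with 1 bar per gene and library and the share of all UMIs at the left. Macrophages (green) held 64.8% and 69.9% of the Hmox1 UMIs, and epithelial cells (blue) 74.6% and 54.8% of the Tfrc UMIs.

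Of the uptake genes, Tfrc was found in every cell type. Its level was 0.898 in T cells of the F/F-labelled and 0.701 of the Mye_KO-labelled library, 0.920 and 0.583 in epithelial cells, and 0.686 and 0.810 in erythroid cells, where it rested on 17 and 11 UMIs. The ranges of these 3 cell types over the libraries overlapped, so their order is not resolved. Macrophages had 0.365 and 0.299, the lowest level among cell types with over 1000 cells in each library. Tfrc was lower in the Mye_KO-labelled library with an interval below 0 in 7 of 11 cell types and above 0 in none. The log2 ratio was -0.36 in T cells (-0.46 to -0.25), -0.66 in epithelial cells (-0.71 to -0.61), -0.89 in B cells (-1.09 to -0.68) and -0.64 in mast cells (-0.90 to -0.38). The B-cell value carries the limit from depth and cell make-up given above. In epithelial cells the median mitochondrial share of UMIs was 11.2% in the F/F-labelled and 18.3% in the Mye_KO-labelled library, and its part in the Tfrc difference was not tested. With immunoglobulin, mitochondrial and ribosomal RNA-like genes left out of the totals, the epithelial Tfrc ratio was -0.34, and in cells under 25% mitochondrial content it was -0.52, both short of 1.5-fold.

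Epithelial cells with a sign of division had more Tfrc. Cells with a UMI of the proliferation gene Mki67 had Tfrc levels of 1.14 and 0.692 in the F/F-labelled and Mye_KO-labelled library, and cells without one had 0.810 and 0.537. The log2 ratio between these classes was 0.49 (0.43 to 0.56) and 0.37 (0.28 to 0.45). Cells with Mki67 were deeper, at medians of 8882 and 9930 against 4539 and 5766 UMIs, and split on thinned counts the ratios were 0.45 and 0.57. Cells with Krt20, a keratin of differentiated colonocytes, went the other way, with Tfrc at 0.805 and 0.476 against 1.01 and 0.683 in cells without Krt20. In T cells the same split by Mki67 gave 0.956 and 0.799 with and 0.882 and 0.664 without it, and only in the Mye_KO-labelled library did the interval lie off 0 (0.12 to 0.42).

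Slc11a2, which carries ferrous iron across endosomal and apical membranes, was highest in macrophages at 0.527 and 0.642, followed by epithelial cells at 0.396 and 0.330. The 2 ranges did not overlap. The macrophage log2 ratio of the Mye_KO-labelled over the F/F-labelled library was 0.28 (0.18 to 0.39), but this direction rested on the weighting of cells: the mean over cells gave 0.00 and thinning every cell to 1000 UMIs gave -0.12. In dendritic cells Slc11a2 was 0.182 and 0.107, in B cells 0.134 and 0.0795 and in neutrophils 0.195 and 0.130 (-0.59, but 0.15 after thinning). These levels come from at most 162 UMIs in a library.

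Slc11a1, a transporter of the phagosome membrane that draws metal ions away from engulfed bacteria, was found mainly in phagocytes. Epithelial cells, at low levels, held 11.3% and 5.76% of its UMIs. The macrophage ratio of Slc11a1 to the macrophage gene C1qa would give 469 of these 774 and 602 of these 634 UMIs. In T cells it would give 118 of 170 and 154 of 186. The part of macrophage RNA in either cell type was not tested. Neutrophils had 2.71 in the F/F-labelled and 3.28 in the Mye_KO-labelled library, a log2 ratio of 0.28 (0.19 to 0.37), and macrophages had 2.15 and 2.01. The ranges of these cell types did not overlap. Basophils followed with 0.768 and 1.38, on 15 and 62 UMIs, and their level of the neutrophil gene S100a8 was 210 and 175 against 598 and 456 in neutrophils. In the 4 other most numerous cell types, from epithelial to mast cells, no level exceeded 0.132. A UMI was found in 64.5% and 61.7% of macrophages and in 57.8% and 74.1% of neutrophils, against 4.79% and 6.00% of T cells. After thinning to 1000 UMIs the shares were 19.4% and 15.6% of macrophages, 23.6% and 26.7% of neutrophils and 1.60% and 0.984% of T cells. Median depths were 7252 and 11227 UMIs in macrophages, 4107 and 7330 in neutrophils and 3548 and 8043 in T cells.

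Ferritin mRNA was highest in phagocytes. Fth1 was at 178 and 147 in neutrophils and 195 and 125 in macrophages, and these ranges overlapped. Basophils came next at 70.0 and 80.1, then dendritic cells at 51.3 and 44.3, and B cells were lowest at 15.9 and 8.49. The basophil values come from 48 and 40 cells with S100a8 at 210 and 175, and the part of neutrophil RNA in them was not tested. Ftl1 was at 45.8 and 36.1 in macrophages and 27.7 and 27.3 in neutrophils, with no overlap, and at 4.72 to 7.23 in epithelial, T and B cells. By the mean over cells the order turned, with 38.0 and 32.4 in neutrophils and 35.8 and 31.6 in macrophages. Both chains together made up 2.41% and 1.62% of all macrophage UMIs and 2.06% and 1.74% of all neutrophil UMIs, against 0.308% and 0.210% in epithelial cells. Ftl1-ps1, an annotated copy of Ftl1, had 4711 UMIs against 443371 for Ftl1, and how reads shared by copies were split or dropped is not known. Copies of Fth1 were not examined, so ferritin levels are uncertain by an amount that was not measured.

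Fth1 was lower in the Mye_KO-labelled library, with an interval below 0 in 10 of 11 cell types and above 0 in basophils. The log2 ratio was -0.64 in macrophages (-0.65 to -0.63), -0.28 in neutrophils (-0.29 to -0.26), -0.62 in epithelial cells (-0.63 to -0.61) and -0.91 in B cells (-0.94 to -0.87). Median depth in B cells was 3664 and 20852 UMIs, and its part in the B-cell ratio was not tested. With other totals, as above, the epithelial ratio was -0.30 and the macrophage ratio -0.57, both short of 1.5-fold. The ratio of Ftl1 was -0.34 in macrophages (-0.36 to -0.33), -0.02 in neutrophils (-0.05 to 0.01), -0.40 in T cells (-0.44 to -0.36) and 0.24 in mast cells (0.19 to 0.29). The number of Fth1 UMIs per Ftl1 UMI was lower in the Mye_KO-labelled library in 10 of 11 cell types.

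The ferritin heavy chain oxidizes iron for storage and the light chain aids formation of the iron core. The ratio of their UMIs is of captured molecules, not corrected for any difference in capture or for reads shared with copies, neither of which was tested. Neutrophils had the highest ratio, 6.44 (6.33 to 6.55) and 5.40 (5.33 to 5.47) Fth1 UMIs per Ftl1 UMI. Macrophages had 4.26 and 3.47, T cells 4.90 and 4.56, and epithelial cells 3.26 and 2.73. Mast cells were low at 1.73 (1.66 to 1.80) and 1.25 (1.23 to 1.28), and B cells had 2.34 and 1.20, with the limit from B-cell depth given above. Basophils were the exception in direction, with 3.13 (2.81 to 3.50) in the F/F-labelled and 3.86 (3.59 to 4.16) in the Mye_KO-labelled library. These rest on 48 and 40 cells, with the limit from neutrophil RNA given above.

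**Figure D3:**
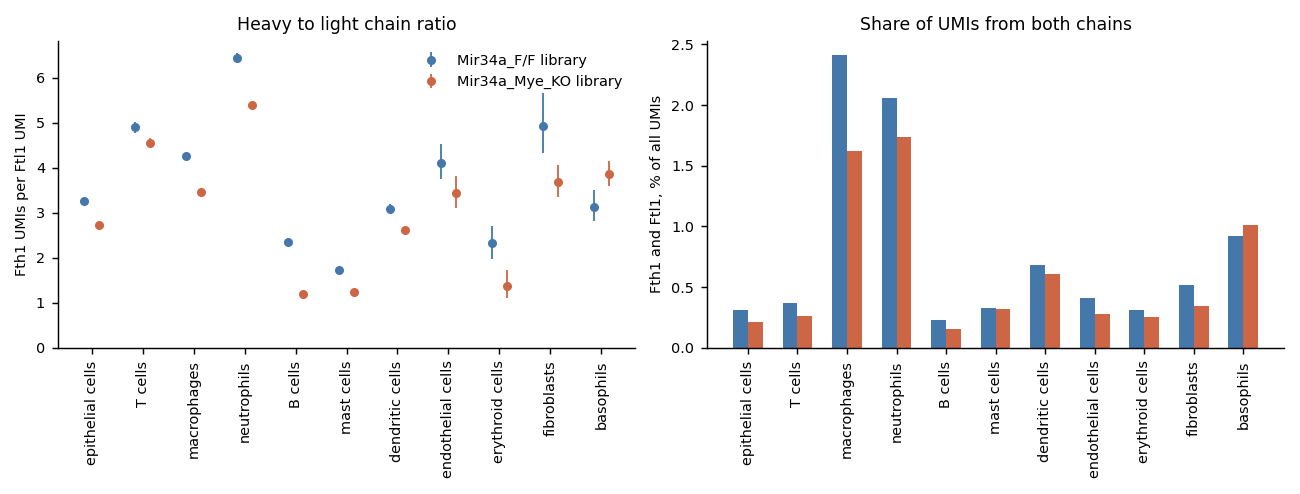
Left, Fth1 UMIs per Ftl1 UMI in each cell type and library with exact binomial 95% intervals; right, share of all UMIs (percent) that were Fth1 or Ftl1. The ratio was highest in neutrophils (6.44 and 5.40) and lower in the Mye_KO-labelled library in 10 of 11 cell types, and the largest shares were those of macrophages (2.41% and 1.62%) and neutrophils (2.06% and 1.74%).

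Slc40a1, the only known iron exporter of mammalian cells, was at 0.581 and 0.720 in macrophages, 0.474 and 0.613 in neutrophils and 0.332 and 0.282 in epithelial cells. The ranges of macrophages and neutrophils overlapped, and by the mean over cells neutrophils came first. The log2 ratio was 0.31 in macrophages (0.21 to 0.41) and 0.37 in neutrophils (0.16 to 0.59), and it was -0.23 in epithelial cells (-0.31 to -0.16), where it turned to 0.08 with other totals. Lymphocytes, mast cells and dendritic cells stayed at or below 0.0999. Within macrophages Slc40a1 was uneven: the 10% of cells with the most UMIs of it held 82.4% and 83.4% of them, and single cells held up to 59 and 125. In epithelial cells it was higher where Krt20 was found, by a log2 ratio of 1.28 (1.18 to 1.39) and 0.98 (0.86 to 1.10), from 0.205 and 0.192 in cells without Krt20. Cells with the stem cell gene Lgr5 had 0.205 and 0.205 against 0.382 and 0.305 without it. Slc40a1 and Tfrc thus differed in opposite directions between these classes of tumor cells in both libraries. Each class was deeper with its gene, at medians of 7804 and 11021 against 4256 and 4861 UMIs for Krt20 and 10858 and 9168 against 4698 and 6031 for Lgr5. Split on thinned counts, the Slc40a1 ratios were 1.02 and 0.70 by Krt20 and -0.96 and -0.19 by Lgr5.

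Hmox1 was the most macrophage-centred of the 10 genes by its share of UMIs. Its level was 4.28 (4.18 to 4.37) in macrophages of the F/F-labelled and 3.23 (3.17 to 3.29) of the Mye_KO-labelled library, a log2 ratio of -0.40 (-0.44 to -0.36). Neutrophils followed at 1.11 and 1.24 (0.17, 0.03 to 0.31) and no other cell type passed 0.653. A UMI was found in 53.7% and 52.2% of macrophages and in 9.84% and 12.2% of T cells. After thinning to 1000 UMIs the shares were 19.9% and 15.0% of macrophages and 3.13% and 1.82% of T cells. A small number of macrophages carried most of it: the 10% with the most UMIs held 69.2% and 73.4%, and the highest cells had 243 and 478. In epithelial cells, at 0.334 and 0.247, Hmox1 per UMI of the macrophage gene C1qa was 3.38 and 2.26 times the macrophage ratio. In T cells, at 0.257 and 0.162, it was 1.47 and 1.57 times, so that 234 of 345 and 248 of 389 UMIs are the number that the macrophage ratio would give. The part of macrophage RNA in either cell type was not tested. In B cells of the Mye_KO-labelled library 119 of 336 Hmox1 UMIs came from 1 cell, and in mast cells 83 of 319 did. Without the highest cell of each library the log2 ratio went from -0.02 to -0.60 in B cells and from -0.39 to -0.76 in mast cells.

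Cd163 was nearly absent. In the whole series it had 21 UMIs in the F/F-labelled and 49 in the Mye_KO-labelled library. Macrophages had 8 and 20, dendritic cells 7 and 9, mast cells 4 and 9 and epithelial cells 2 and 9. The macrophage levels of 0.00411 and 0.00602 stood beside 17.9 and 20.0 for C1qa, a defining macrophage gene. No UMI was found in neutrophils, where 3 UMIs would be a level of 0.00537 and 0.00312, nor in B cells, endothelial cells, erythroid cells or basophils. A difference between the libraries was not detectable at this depth (log2 ratio 0.55, -0.69 to 1.94, in macrophages).

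Hp was highest in neutrophils, at 3.81 and 4.79, a log2 ratio of 0.33 (0.26 to 0.40). Macrophages had 1.16 and 0.892, a ratio of -0.38 (-0.46 to -0.30). Hp per S100a8 UMI was 44.7 and 17.3 times the neutrophil ratio in macrophages, and it was 2.55 and 1.06 times in epithelial cells and 0.497 and 0.799 times in basophils. The part of neutrophil RNA in the macrophage UMIs was not tested. Fibroblasts had 1.31 and 3.66, on 40 UMIs from 57 cells and 249 UMIs from 60 cells. Of the 249 UMIs, 160 came from 1 cell. Without the highest cell of each library the fibroblast levels were 1.06 and 1.35 and the log2 ratio went from 1.49 to 0.36.

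Alas2 was highest in erythroid cells, at 8.72 (7.60 to 9.97) and 7.29 (5.93 to 8.88) in 106 and 30 erythroid cells. The log2 ratio of -0.26 (-0.62 to 0.09) was not distinguishable from 0. Mast cells came next at 0.147 (0.109 to 0.195) and 0.134 (0.111 to 0.161), on 48 and 118 UMIs, and no other cell type exceeded 0.0209. A UMI was found in 4.51% and 7.64% of mast cells, against 0.551% and 0.642% of T cells at median depths of 2952 and 8456 against 3548 and 8043 UMIs. After thinning the shares were 1.17% and 0.894% of mast cells and 0.200% and 0.0379% of T cells. Alas2 per UMI of the hemoglobin gene Hbb-bs was 14.9 and 18.1 times the erythroid ratio in mast cells. The same measure was 2.24 in T cells of the F/F-labelled library but 44.1 in those of the Mye_KO-labelled library, where it rested on 19 Alas2 and 79 Hbb-bs UMIs. Summed hemoglobin outside erythroid cells was 3.77 in T cells of the F/F-labelled and 0.0667 of the Mye_KO-labelled library, and in mast cells it was 4.27 and 2.41. No Alas2 UMI was found in endothelial cells, where 3 UMIs would be 0.0443 and 0.0389, or in basophils, where they would be 0.154 and 0.0667.

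Macrophages with and without a UMI of Mrc1, the mannose receptor of the M2-like state the study follows, differed in Slc40a1, Slc11a2 and Hp by over 1.5-fold in both libraries. Mrc1 was found in 37.7% of macrophages of the F/F-labelled and 47.0% of the Mye_KO-labelled library (12.5% and 18.8% after thinning to 1000 UMIs). Slc40a1 was at 0.841 and 1.01 in macrophages with Mrc1 and 0.317 and 0.197 in those without, log2 ratios of 1.41 (1.22 to 1.60) and 2.36 (2.17 to 2.56). Slc11a2 went the same way, at 0.659 and 0.803 against 0.394 and 0.356. Hp was far lower with Mrc1, at 0.278 and 0.352 against 2.06 and 1.85. C1qa moved with the split, from 10.6 and 6.95 without to 25.1 and 27.4 with Mrc1. Cells with Mrc1 were deeper, with a median of 10915 against 5854 UMIs in the F/F-labelled and 18462 against 6139.5 in the Mye_KO-labelled library, and split on thinned counts the Slc40a1 ratios were 0.84 and 1.57.

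The split by Ly6c2, a gene of inflammatory monocytes, ran opposite for these genes. Hp was at 3.19 and 3.10 in macrophages with Ly6c2 and 0.681 and 0.273 in those without, log2 ratios of 2.23 (2.11 to 2.35) and 3.51 (3.38 to 3.63). S100a8 was also higher with Ly6c2, at 10.5 and 13.4 against 2.56 and 2.56. Slc40a1 was at 0.268 and 0.326 with and 0.655 and 0.830 without Ly6c2, and Ftl1 at 29.0 and 26.9 against 49.8 and 38.7. The Slc40a1 ratios were -1.29 and -1.35. Median depths with and without Ly6c2 were 6718 and 7726 UMIs in the F/F-labelled and 13641 and 9364 in the Mye_KO-labelled library, and split on thinned counts the ratios were 2.01 and 2.63 for Hp, -2.34 and -3.20 for Slc40a1 and -0.82 and -0.68 for Ftl1. C1qa was lower with Ly6c2, at 5.45 and 6.98 against 20.9 and 23.7. The paper divides macrophages and monocytes together and calls its Ly6c2-positive subtype monocytes. Whether the cells with Ly6c2 here are monocytes was not tested. Cells annotated as macrophages with Ly6c2 thus had more haptoglobin mRNA and less mRNA of ferroportin and ferritin light chain in both libraries.

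Hmox1 and both ferritin chains were higher in macrophages with Arg1, which encodes arginase 1. Hmox1 was at 5.92 and 4.88 in macrophages with Arg1 against 2.47 and 2.41 in those without, log2 ratios of 1.26 (1.19 to 1.33) and 1.02 (0.97 to 1.08). Fth1 was at 241 and 164 against 145 and 106, and Ftl1 at 55.4 and 43.9 against 35.4 and 32.3. Cells with Arg1 were deeper, at medians of 9766 and 15699 against 6122 and 9481 UMIs, and split on thinned counts the Hmox1 ratios were 1.51 and 1.66. Slc40a1 differed little, at 0.635 and 0.795 against 0.521 and 0.682. Arg1 was found in 41.7% of macrophages of the F/F-labelled and 26.7% of the Mye_KO-labelled library. Between the libraries, Hmox1 differed by -0.28 (-0.33 to -0.22) among macrophages with Arg1 and by -0.04 (-0.11 to 0.04) among those without, while Fth1 differed by -0.55 and -0.45. For Ly6c2, Mrc1 and Nos2 the log2 ratio of Hmox1 between cells with and without the gene was not alike in the libraries. By Ly6c2 it was -0.63 (-0.73 to -0.54) in the F/F-labelled and 0.22 (0.16 to 0.28) in the Mye_KO-labelled library. By Mrc1 it was -0.20 (-0.26 to -0.14) in the F/F-labelled and 0.25 (0.19 to 0.31) in the Mye_KO-labelled library, and by Nos2 it was 0.50 and 0.01. Split on thinned counts it was -0.59 and -0.01 by Ly6c2, -0.57 and 0.52 by Mrc1 and 0.44 and -0.76 by Nos2. Nos2 was found in 16.4% and 14.8% of macrophages but in only 3.65% and 2.43% after thinning, so the thinned Nos2 values rest on few cells. Median depths with and without Nos2 were 9633 and 6855 UMIs in the F/F-labelled and 16269.5 and 10427 in the Mye_KO-labelled library.

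Hmox1 and Slc40a1 occurred together in macrophages. Slc40a1 was at 0.740 and 0.913 in macrophages with a Hmox1 UMI and 0.233 and 0.280 in those without, log2 ratios of 1.67 (1.41 to 1.93) and 1.71 (1.53 to 1.89). Ftl1 was at 54.2 and 40.9 against 27.6 and 25.2. C1qa was also higher with Hmox1, at 20.3 and 22.7 against 12.7 and 14.0. Macrophages with Hmox1 were deeper (a median of 10178 against 5243 UMIs in the F/F-labelled and 17284 against 4558 in the Mye_KO-labelled library), and finding 1 rare mRNA is more likely in a deep cell. Hp and Slc40a1 separated, with Slc40a1 at 0.255 and 0.182 in macrophages with Hp and 0.696 and 0.916 in those without. Cells with Hp also had less C1qa, at 7.39 and 8.39 against 21.6 and 24.3, and more S100a8, at 8.59 and 13.4 against 2.48 and 1.86. Their median depths were 6778 and 13603 against 7688 and 8941 UMIs. The splits by Hmox1 and by Hp were not repeated on thinned counts.

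**Figure D4:**
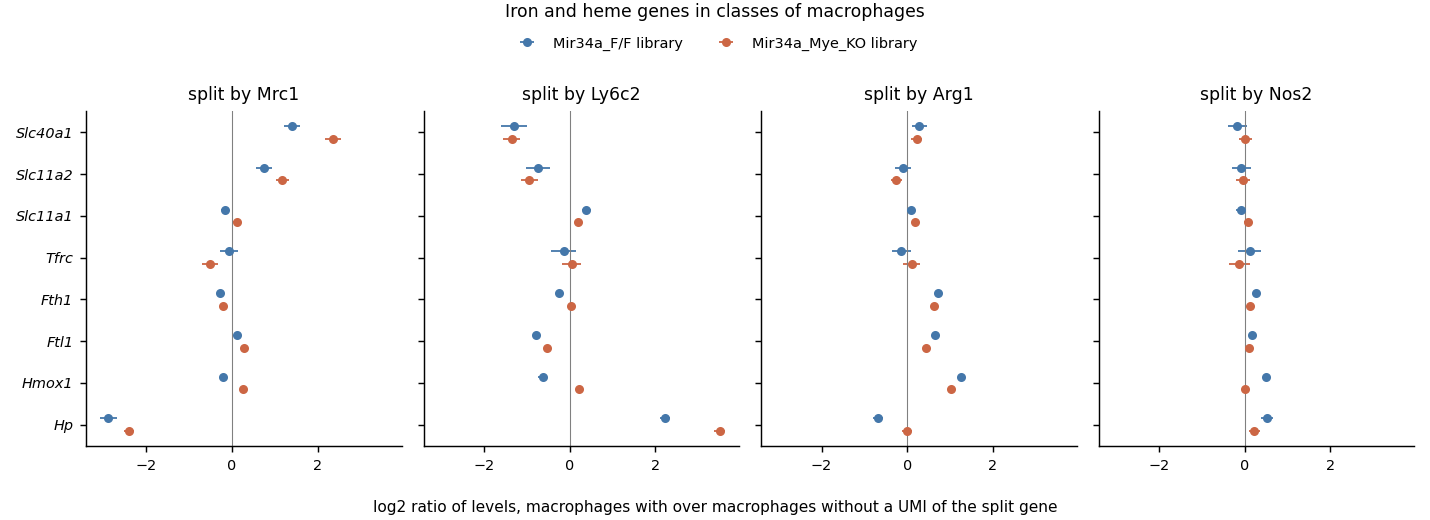
log2 ratio of the level in macrophages with a UMI of the split gene over macrophages without one, for 8 members, in the F/F-labelled (blue) and Mye_KO-labelled library (orange), with exact 95% intervals. Slc40a1 was higher with Mrc1 (1.41 and 2.36), Hp higher with Ly6c2 (2.23 and 3.51) and Hmox1 higher with Arg1 (1.26 and 1.02).

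Between the libraries, members were counted as different where the levels differed at least 1.5-fold, in the 7 cell types with at least 200 cells in each library. This rule of size stands in for a test. Of 70 pairs of member and cell type, 45 passed the filter on low values (a mean level of at least 0.1 and at least 50 UMIs), 12 were lower in the Mye_KO-labelled library by the rule and none was higher. Over all genes, too, more were lower than higher in each of the 7 cell types, with 5.37% to 23.2% lower and 1.15% to 5.93% higher. In macrophages 1 of 8 members passing the filter was lower (Fth1) and none was higher, where 5.37% of all genes were lower and 3.97% higher. Neutrophils had 1 of 8 lower (Slc11a2), with a background of 15.4% lower and 5.93% higher, and this difference turned to 0.15 after thinning to 1000 UMIs. In epithelial cells 2 of 6 were lower (Tfrc and Fth1), with 14.0% and 1.15%, in T cells 2 of 6 (Hmox1 and Slc11a1), with 7.87% and 2.10%, and in B cells 3 of 5 (Tfrc, Fth1 and Slc11a2), with 23.2% and 2.91%. The B-cell count carries the limit from depth and cell make-up given above. Mast cells had 2 of 7 lower (Tfrc and Slc11a1), with 10.0% lower and 3.42% higher in the background, and dendritic cells 1 of 5 (Slc11a2), with 6.09% and 4.90%. Slc11a1 in T cells and mast cells and Slc11a2 in B cells were below 0.1 in the Mye_KO-labelled library and passed the filter only through the F/F-labelled one, so that these 3 had to be lower and carry no weight in the counts. In cells under 25% mitochondrial content no member was past the fold in epithelial cells. In B cells and mast cells single cells also decide the count, since without the highest cell of each library Hmox1 in both (-0.60 and -0.76) and Slc11a2 in mast cells (-0.68) were past 1.5-fold too.

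The levels of all genes were shifted in 3 cell types. The median log2 ratio over all genes that passed the filter was -0.31 in B cells, -0.23 in epithelial cells and -0.19 in neutrophils, and between -0.08 and 0.03 in the other 4 cell types. The median over the members was -0.76, -0.40 and 0.07 in the same first 3 cell types, and -0.32 in macrophages beside -0.06 over all genes. After this median was subtracted, 5 of the 45 pairs were lower by the rule and none was higher, where 6.21% of all such pairs of gene and cell type were lower and 5.69% higher. Slc11a1 in T cells and in mast cells are among these 5 and, as said, had to be lower before the median was subtracted. In macrophages the Fth1 ratio was then -0.58, while Slc40a1 lay at percentile 86.3 of all genes and Slc11a2 at 84.5. The Slc11a2 ratio there was 0.00 with the mean over cells and -0.12 after thinning, so its place rests on the weighting of cells. In neutrophils Slc40a1, Hp and Slc11a1 lay at percentiles 87.5, 85.9 and 83.3.

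**Figure D5:**
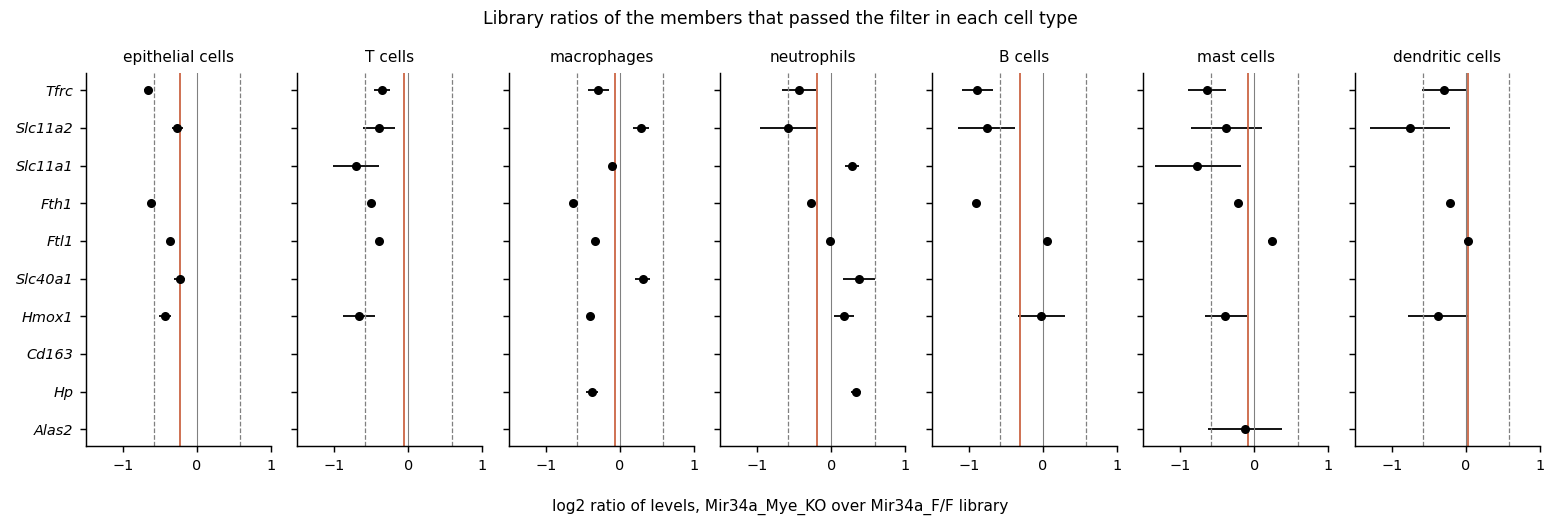
log2 ratio of the level in the Mye_KO-labelled over the F/F-labelled library for members that passed the filter, in 7 cell types, with exact 95% intervals. Dashed lines mark a 1.5-fold difference and the orange line the median of all genes. No member lay beyond the upper dashed line, and Fth1 lay beyond the lower one in macrophages, epithelial cells and B cells.

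A list of 60 other genes of iron and heme handling gives the setting. In macrophages 37 passed the filter, 4 were higher in the Mye_KO-labelled library by the 1.5-fold rule and 1 was lower, where 3.97% of all genes were higher and 5.37% lower, with a median of -0.06, equal to that of all genes. The 4 were Spic, the transcription factor of red pulp macrophages, at 0.0919 and 0.379 (2.04, 1.82 to 2.28), Cp, the ferroxidase ceruloplasmin, at 0.615 and 1.34 (1.12, 1.03 to 1.21), Bach1, the heme-sensing repressor of Hmox1, at 1.19 and 2.06 (0.79, 0.73 to 0.86), and Hfe at 0.279 and 0.425 (0.61, 0.46 to 0.75). Spic was below 0.1 in the F/F-labelled library and passed the filter only through the other, so it could only be higher and carries no weight in the count. Slc25a37, the mitochondrial iron importer, was lower at 0.401 and 0.249. Spic was mainly in macrophages with Mrc1, at 0.145 and 0.559 against 0.0383 and 0.0602 in those without, and Cp at 1.01 and 1.94 against 0.209 and 0.268. Among other iron genes, Trf, which encodes transferrin, had 5.18 and 4.60 in macrophages, and Nfe2l2, an activator of Hmox1, 6.40 and 7.50.

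In neutrophils 31 of the 60 passed, 1 was higher and 3 were lower, where 5.93% of all genes were higher and 15.4% lower, with a median of 0.02 beside -0.19 over all genes. After that median was subtracted, 4 were higher and 2 lower (11.4% and 5.59% of all genes). Slc7a11, the cystine transporter, was higher, at 15.8 and 30.2 (0.93, 0.90 to 0.97). Ltf, which encodes the iron-binding granule protein lactoferrin, was lower at 3.88 and 2.06, as were Slc39a8 at 0.168 and 0.0863 and Alad at 0.226 and 0.140. Slc39a8 there, like Blvra in epithelial cells (0.149 and 0.0956), passed the filter only through the F/F-labelled library and had to be lower. In epithelial cells 41 passed, none was higher and 8 were lower, where 1.15% of all genes were higher and 14.0% lower, with a median of -0.32 beside -0.23. After the median of all genes was subtracted, 2 were higher and 3 lower (3.21% and 4.29% of all genes). The largest difference was in Lcn2, the siderophore-binding lipocalin, at 1.72 and 0.485 (-1.82, -1.87 to -1.78). It was not confined to epithelial cells. Lcn2 was also among the lower genes in T cells, B cells and mast cells, but not in macrophages, neutrophils or dendritic cells. The part of RNA from other cells in the Lcn2 UMIs of T cells, B cells and mast cells was not tested. The others were Slc39a8, Pcbp1, Pcbp2, Urod, Cpox, Tmem14c and Blvra, with ratios from -0.94 to -0.62. Hamp, which encodes hepcidin and was chosen after its values were seen, was under the filter in epithelial cells with 1226 and 454 UMIs, at 0.130 and 0.0512. In the other 4 cell types, T cells had 5 of 36 lower (7.87% of all genes), B cells 10 of 28 (23.2%), mast cells 3 of 33 (10.0%) and dendritic cells 2 of 36 (6.09%), and Gclc in dendritic cells was the only gene higher. Of the lower genes, 2 in T cells (Steap4 and Lrp1), 2 in mast cells (Ltf and Lrp1), 1 in B cells (Slc25a37) and 1 in dendritic cells (Epas1) were below 0.1 in the Mye_KO-labelled library and passed only through the other, so these too had to be lower. After subtracting the median of all genes, B cells had 3 higher and 2 lower (8.97% and 9.51% of all genes) and T cells 1 higher and 4 lower (3.25% and 6.00%).

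The genes whose levels followed each member most closely over the 22 combinations of cell type and library were taken from 6872 others. These correlations describe profiles that share their libraries and cell types. Hmox1 was closest to Sirpb1c (r = 0.92) and to Plin2 (0.90), which coats lipid droplets. Fth1 was closest to Prdx5 (0.97), Ftl1 to Fcgr3 (0.94), Slc11a1 to Igsf6, Cxcl3 and Gm5150 (0.96 each) and Hp to Mgst1 (0.93). Alas2 was closest to Slc4a1, the anion exchanger of red cells, and Apol11b (0.98 each), and Slc40a1 to Alas1 (0.83), the housekeeping counterpart of Alas2. Tfrc was closest to the histone gene Hist1h4h (0.85), Slc11a2 to Abhd12 (0.88) and Cd163 to Gng10 (0.81), the last on very few UMIs. Among the members themselves the closest pairs were Fth1 with Slc11a1 (0.90) and Fth1 with Ftl1 (0.86).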

How the data were processed

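The authors aligned reads to mm10 with Cell Ranger 7.2.0, filtered cells, removed doublets with Scrublet and deposited natural log values (UMIs of a gene scaled to 10000 for each cell, plus 1, then logged) with the cell type of each cell. Undoing the log and dividing by the smallest value of a cell gave whole UMIs, with a largest deviation of 1.5e-10, for 32291 genes in 38883 cells. The study's methods keep cells under 25% mitochondrial RNA, but 2470 of 20312 and 4130 of 18571 deposited cells are at or over it. All were kept here.

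UMIs were summed per cell type and library and divided by the summed UMIs. Intervals are exact Poisson for levels, exact binomial for shares and exact conditional for ratios, at 95%. A count of 0 was read against 3 UMIs. With 1 library per genotype no test, replicate spread or p-value was possible, and a 1.5-fold difference stood in. The ratio and its interval were run on simulated Poisson UMIs. These leave out the spread between cells and between mice, so only the calculation was checked. Depth (medians of 4787 and 7716 UMIs per cell) limits rare mRNAs most, and shallow cells were left out of thinning to 1000 UMIs (840 and 181).

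The members, lists and marker genes were chosen with earlier results of these data known. Named genes are the members, the 3 genes closest to each over cell types, and listed iron and heme genes past the fold in macrophages, neutrophils or epithelial cells or highest in their role. Some results are not reported here. Alternatives were the mean over cells, filters on cells (500 expressed mRNAs, 10% or 25% mitochondrial content), other totals (without 410 genes), a pseudocount of 1, thinning, no filter and a mean of at least 0.5. Leaving out the highest cell, and other splits on thinned counts, were added after seeing the data. UTRs were read from GENCODE M21. Python 3.11.15, numpy 2.4.6, scipy 1.17.1, pandas 2.3.3 and matplotlib 3.10.9 were used.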

Additional observations from a re-analysis of the deposited data

Results flagged for a closer look

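Among members that passed the filter on low values in the 7 cell types with at least 200 cells in each library, 6 genes differed between the libraries in opposite directions in 2 cell types, each with an interval off 0. This was 6 of the 8 members tested in at least 2 of these cell types, where 33.4% of 9428 genes met the same rule. The intervals are for counting error only and the shift of all genes was not subtracted. Genes with many UMIs meet such a rule more easily, so the count is not read as a trait of the members. The difference between the 2 cell types was not tested, and its cause was not tested either. Values are log2 ratios of the Mye_KO-labelled over the F/F-labelled library.

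Slc11a2 had 0.28 (0.18 to 0.39) in macrophages and -0.76 (-1.30 to -0.22) in dendritic cells, a gap of 1.05. The macrophage value went to 0.00 with the mean over cells. Slc11a1 had 0.28 (0.19 to 0.37) in neutrophils and -0.77 (-1.34 to -0.18) in mast cells, a gap of 1.05, and the mast cell value rests on 43 and 68 UMIs. At 0.132 and 0.0774, Slc11a1 passed the filter in mast cells only through the F/F-labelled library, so it had to be lower there and carries no weight. Hmox1 had 0.17 (0.03 to 0.31) in neutrophils and -0.67 (-0.88 to -0.45) in T cells, a gap of 0.84, and in T cells 234 of 345 and 248 of 389 UMIs are what the macrophage ratio of Hmox1 to C1qa would give.

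Hp had 0.33 (0.26 to 0.40) in neutrophils and -0.38 (-0.46 to -0.30) in macrophages, a gap of 0.71. Ftl1 had 0.24 (0.19 to 0.29) in mast cells and -0.40 (-0.44 to -0.36) in T cells, a gap of 0.64. Slc40a1 had 0.37 (0.16 to 0.59) in neutrophils and -0.23 (-0.31 to -0.16) in epithelial cells, a gap of 0.60. In epithelial cells the Slc40a1 ratio became 0.08 with other totals, and the median mitochondrial share there was 11.2% and 18.3%.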

How the results depend on the processing

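No paired analysis was possible because each genotype is 1 library, and for the same reason no library could be left out. Of 63 values for the library ratio of 9 members in the cell type where each was highest by the mean of the libraries, 60 kept their sign. Those that moved beyond the counting interval follow. With the mean over cells the log2 ratio was -0.36 for Hmox1 in macrophages, 0.44 for Slc40a1, -0.18 for Ftl1 and 0.00 for Slc11a2 there, and -0.42 for Fth1, 0.16 for Slc11a1 and 0.19 for Hp in neutrophils. With a pseudocount of 1 it was -0.32 for Hmox1, 0.12 for Slc40a1 and 0.10 for Slc11a2 in macrophages and -0.16 for Tfrc in T cells. With 410 genes (immunoglobulin, mitochondrial, ribosomal RNA-like) left out of the totals it was -0.34 for Hmox1 and -0.28 for Ftl1 in macrophages and -0.19 for Fth1 and 0.41 for Hp in neutrophils. Keeping cells below 10% mitochondrial content with 500 or more expressed mRNAs, it was -0.33 for Ftl1 in macrophages and -0.20 for Fth1 in neutrophils, and under 25% mitochondrial content it was -0.22 for the latter. Thinned to 1000 UMIs, it was -0.18 for Ftl1 and -0.12 for Slc11a2 in macrophages and -0.43 for Fth1 in neutrophils.

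Signs changed in 38 of 434 values for library ratios in other cell types, 3 of 32 for Mrc1 splits and 51 of 236 for other splits. A difference past 1.5-fold changed sign for Hmox1 in endothelial cells with the mean over cells (0.05), and after thinning for Slc40a1 in B cells (1.01) and Slc11a2 in neutrophils (0.15). It also changed sign after thinning for Hp in the Arg1 split of the F/F-labelled library (0.14) and Alas2 in the epithelial Mki67 split of the Mye_KO-labelled library (-0.25). For the Mrc1 split, thinning gave 0.84 for Slc40a1 in the F/F-labelled library, and 1.57 for Slc40a1, 0.63 for Slc11a2 and -2.83 for Hp in the Mye_KO-labelled library, where the mean over cells gave 1.64, 0.90 and -1.92.

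The number of members past 1.5-fold became 0 in epithelial cells under both filters on cells. The mean over cells gave 0 in epithelial cells and neutrophils, 1 in T cells and 2 in macrophages. Other totals gave 0 in epithelial cells, macrophages and neutrophils, 1 in mast cells and 2 in dendritic cells. Thinning gave 0 in epithelial cells, neutrophils and dendritic cells, 1 in mast cells and 2 in macrophages. A pseudocount of 1 gave 1 in epithelial cells and B cells and 0 in T cells, neutrophils, mast cells and dendritic cells. A mean of at least 0.5 gave 0 in T cells, neutrophils, mast cells and dendritic cells and 1 in B cells, and no filter gave 5 in T cells, 2 in macrophages, 2 in neutrophils, 7 in B cells and 4 in dendritic cells. The shares of all genes under these alternatives are not given here, so the counts show only how they depend on the settings. Which feature of an alternative moved a value was not tested. Rare mRNAs (Cd163, and Alas2 outside erythroid and mast cells) are limited by depth.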

Other observations

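In neutrophils the NRF2 target Txnrd1 was at 3.01 in the F/F-labelled and 4.49 in the Mye_KO-labelled library, a log2 ratio of 0.57 (0.49 to 0.66), and Nfe2l2 itself was at 4.10 and 5.59. Gclm, another NRF2 target, was at 0.993 and 1.05 in neutrophils and at 0.755 and 0.522 in macrophages. Steap4, a ferrireductase, was at 0.447 and 0.626 in neutrophils and at 0.106 and 0.0632 in macrophages. Heph, the ferroxidase that works with ferroportin in enterocytes, was at 0.350 and 0.464 in epithelial cells, where Slc46a1, a transporter of heme and folate, was at 0.199 and 0.144. Hpx, which encodes hemopexin, had 18 and 14 UMIs in all epithelial cells and 3 and 6 in macrophages. These genes were chosen after their values were seen, and their differences were not tested.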
